A study of Mus musculus with 67 samples.

Results

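The chemokines and chemokine receptors of the mouse were described across 4 tissues of 3 inbred strains that differ in blood pressure. The members were all probe sets whose gene symbol is a Ccl, Cxcl, Ccr or Cxcr gene with a number, or Cx3cl1, Cx3cr1, Xcl1 or Xcr1. This rule, which used no measured value, found 54 probe sets of 47 genes among the 38385 probe sets of the array, which cover 19147 named genes. The groups were BPH/2J mice, which are hypertensive, BPL/1J mice, which are hypotensive, and BPN/3J mice, which are normotensive. Systolic pressures given for the strains were 142 ± 5 mmHg in BPH, 69 ± 1.7 mmHg in BPL and 94 ± 6 mmHg in BPN, with the kind of error not named. All mice were males of 12 weeks on standard chow, with 5 mice per strain. Aorta was measured on 9 BPH, 9 BPL and 5 BPN arrays, kidney on 5 BPH, 4 BPL and 5 BPN arrays, and heart and liver on 5 arrays of each strain. Which animal an array came from is not stated, and aorta has more arrays than mice in BPH and BPL, so p-values measure the spread between arrays. The strains are separate inbred lines with no change of pressure within a line, so pressure and genetic background cannot be told apart.

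Chemokines are small secreted proteins that guide leukocytes along gradients by binding G protein-coupled receptors on the cell surface. Inducible ligands such as Ccl2 and Ccl5 draw monocytes and T cells into stressed vessel wall, myocardium and kidney, while homeostatic ligands such as Cxcl12, Cxcl13 and Ccl19 place cells in marrow and lymphoid tissue. Atypical receptors bind chemokines without classical signalling and clear them. Whole tissue was measured, so fewer leukocytes and less transcript per leukocyte cannot be told apart in any result here.

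Levels below are log2 intensities and differences are log2 differences between strain means with the standard error of a moderated linear model (limma), fitted to each tissue. A probe set counts as called where its p-value, adjusted by Benjamini-Hochberg over all 38385 probe sets, was under 0.05, and "rose" and "fell" are used of called probe sets alone. Where a call is said to be lost without any of several arrays, each was left out on its own. Levels of different probe sets or tissues are not compared, since probe sets differ in response and the tissues were normalised to different distributions. BPH and BPL were each compared with the same BPN arrays, so these 2 comparisons are not independent. Heart and liver markers were high in their own tissues. The summed intensity of the heart markers Myh6, Tnnt2, Actc1, Nppa and Myl2 was 73.2 to 121 in BPH, 71.9 to 102 in BPL and 75.1 to 91.8 in BPN livers, against 79644 to 83193 in BPH, 74040 to 79538 in BPL and 81456 to 84785 in BPN hearts. The liver markers reached 4559, 4124 and 3333 on the highest BPH, BPL and BPN heart arrays, over strain medians of 1359, 848 and 1088. In aorta, 1 BPH array reached 3817 for these heart markers, against a BPH median of 606. The heart marker sums in aorta were 780 to 1692 (median 1035) in BPL, against 284 to 562 (median 343) in BPN, with Actc1 alone of the 5 called. The aorta markers summed to 28027 to 33160 in BPL, against 33882 to 37262 in BPN, with 2 of 5 lower, and the fibroblast markers to 28861 to 33282 in BPL, against 35168 to 37399 in BPN, with 4 of 6 lower. None of these BPL and BPN ranges overlapped, and their part in the BPL aorta results was not tested. On the liver side, 1 BPL aorta array reached 1704 for the liver markers, against a BPL median of 14.2. The array values within a strain and tissue correlated at 0.986 or more over all probe sets, and no arrays held identical values.

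Over the 12 comparisons, 26 of the 47 genes, with 31 probe sets, were called at least once. The other 21 genes were not called in any comparison. A single comparison called 5.77% to 11% of all probe sets. The share of all probe sets called at least once is not given, so these counts are not read as particular to the family. No member was called in 1 direction in every tissue.

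**Figure D1:**
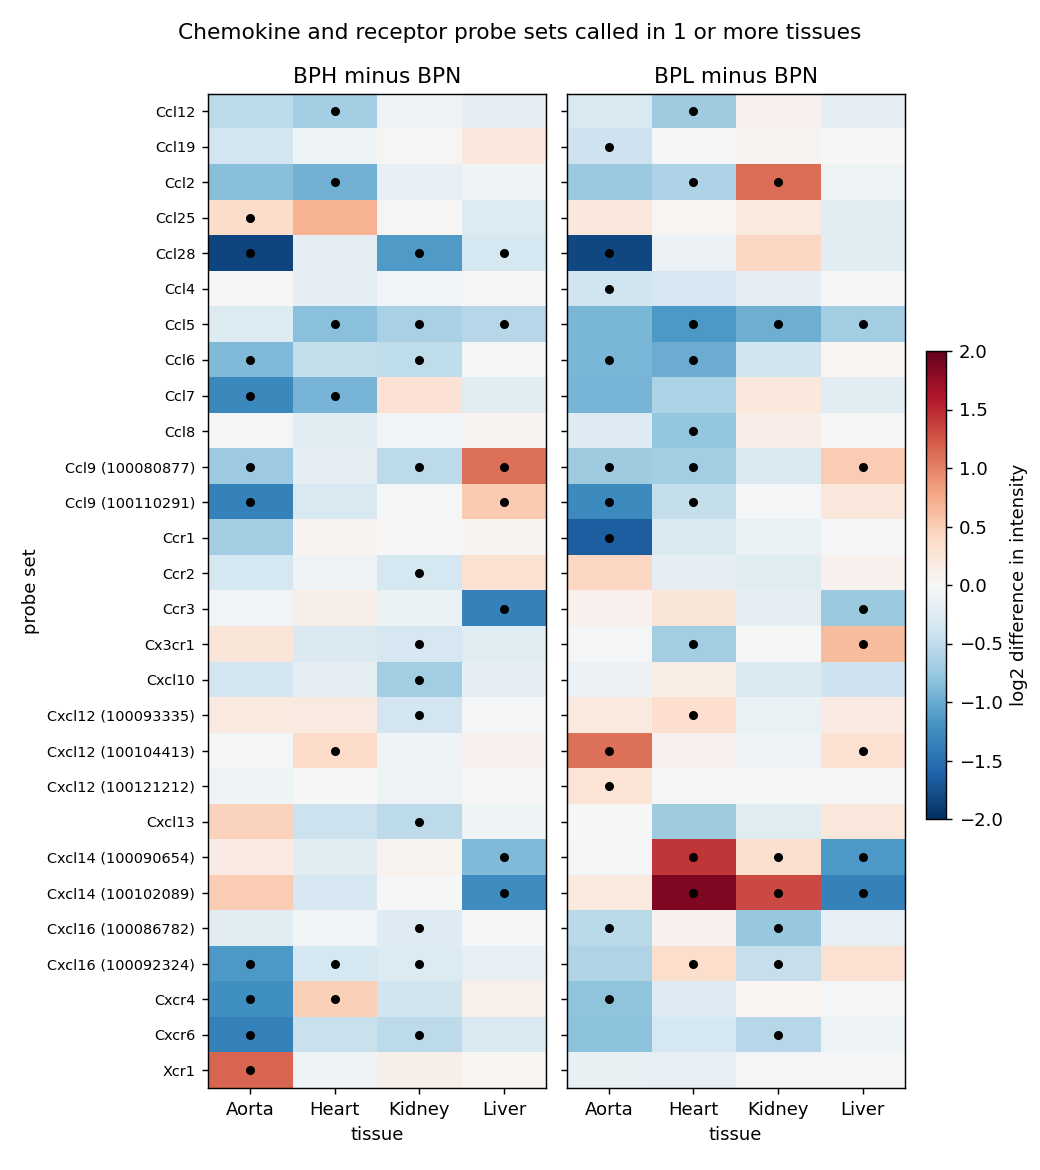
Log2 differences from BPN of the chemokine and receptor probe sets called in 1 or more tissues, for BPH (left) and BPL (right), with tissues across and probe sets down. Colour gives the log2 difference and a black dot marks an adjusted p under 0.05; the blue cells of Ccl5 and Ccl28, the red Cxcl14 cells in BPL heart and kidney and the red Ccl9 cells in liver stand out.

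In aorta, most chemokine transcripts that changed were lower in both BPH and BPL than in BPN. The monocyte-attracting ligands Ccl6 and Ccl9 and the receptor Cxcr4 fell in both strains, as did 1 of the 2 probe sets of the mucosal ligand Ccl28, to levels that may be background. Transcripts of Xcr1, the receptor that marks cross-presenting dendritic cells, rose in BPH, and those of Cxcl12 rose in BPL. In BPH against BPN 2 probe sets rose and 8 fell, which is 18.5% of the members, against 9.15% of all probe sets (4.45% higher, 4.7% lower). In BPL against BPN 2 rose and 9 fell, 20.4% of the members against 10.3% of all probe sets (5.14% higher, 5.2% lower). Between BPH and BPL, 4 were higher and 3 lower in BPH, 13% of members against 11% of all probe sets (5.67% higher, 5.36% lower). The higher ones were Ccl4, Ccl11, Xcr1 and Cxcl16 probe set 100086782. The other Cxcl16 probe set, 100092324, had a lower mean in BPH than in BPL (5.19 against 5.73) and was not called. Of the 10 probe sets of inducible monocyte and T cell ligands, 4 fell and none rose in each strain, with median log2 differences of -0.62 in BPH and -0.73 in BPL. The median log2 difference over all members was -0.084 in BPH and -0.11 in BPL, beside 0.0026 and 0.0074 over all probe sets.

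Among the inducible monocyte and T cell ligands, Ccl6 had log2 levels of 7.62 to 8.90 (median 8.12) in BPH and 7.65 to 8.91 (median 8.16) in BPL aortas, against 9.54, 9.39, 9.10, 8.30 and 9.09 in BPN aortas. Both lower groups overlapped BPN through BPN array 14 alone. The log2 difference was -0.88 ± 0.21 (adjusted p = 0.00638) in BPH and -0.92 ± 0.21 (adjusted p = 0.00403) in BPL. Its neighbour Ccl9, a ligand of the receptor Ccr1, had log2 levels of 9.18 to 10.51 (median 9.55) in BPH and 9.18 to 10.38 (median 9.67) in BPL, against 10.65, 10.71, 10.37, 9.88 and 10.26 in BPN. Ranges overlapped, with 7 of 9 BPH and 6 of 9 BPL arrays under the lowest BPN array. Both probe sets of Ccl9 fell in both strains, with log2 differences of -0.73 ± 0.21 and -1.35 ± 0.31 in BPH and of -0.71 ± 0.21 and -1.27 ± 0.31 in BPL.

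Ccl9 and Ccl6 lie side by side among the Ccl genes of chromosome 11 in the RefSeq gene order, so their promoters are shown. They fell together in BPH aorta and kidney and in BPL aorta and heart. In liver they came apart: Ccl9 probe set 100080877 rose in both strains and Ccl6 was not called. Mean log2 levels of Ccl6 in liver were 5.74 in BPH and 5.80 in BPL, against 5.76 in BPN. The sequences are from RefSeq (GRCm38.p6), 250 bases before to 50 after the start site, on the minus strand, at chr11:83578587-83578886 for Ccl9 and chr11:83593038-83593337 for Ccl6. Capitals mark matches on either strand to the TATA box motif TATAAA, the ETS core ACTTCC, the AP-1 motif TGANTCA, the GC box GGGCGG and an interferon-stimulated element, which is GAAA repeated after any 2 bases.
Ccl9: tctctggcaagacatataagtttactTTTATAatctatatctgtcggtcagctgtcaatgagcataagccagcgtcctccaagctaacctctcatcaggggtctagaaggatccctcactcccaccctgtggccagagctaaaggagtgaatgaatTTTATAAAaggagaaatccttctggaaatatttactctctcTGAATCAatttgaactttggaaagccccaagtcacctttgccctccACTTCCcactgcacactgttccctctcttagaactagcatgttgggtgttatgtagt
Ccl6: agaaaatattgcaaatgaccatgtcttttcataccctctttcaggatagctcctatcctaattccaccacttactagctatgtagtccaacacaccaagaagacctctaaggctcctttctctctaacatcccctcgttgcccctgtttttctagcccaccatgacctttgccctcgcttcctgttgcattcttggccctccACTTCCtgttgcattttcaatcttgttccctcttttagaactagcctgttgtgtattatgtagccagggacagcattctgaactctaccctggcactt
The longest run shared by the 2 windows was 13 bases, gccctccacttcc, and it holds the ACTTCC match of both. That match begins 7 bases before the start site in Ccl9 and 48 bases before it in Ccl6. ACTTCC occurs in 23.8% of the 32851 RefSeq promoters of this length and in 17 of the 36 member genes with a promoter there. The Ccl9 window also holds TATAAA, beginning 92 bases before the start site and overlapping its reverse complement, and a TGANTCA match. TATAAA is found in 13.6% and TGANTCA in 7.81% of all promoters, while the GC box and the interferon-stimulated element, at 35.7% and 3.44% of all promoters, have no match in these windows.

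Ccl7, a monocyte ligand, had log2 levels of 5.23 to 7.74 (median 5.71) in BPH aortas, against 7.94, 7.71, 6.46, 6.47 and 7.29 in BPN. BPH array 11 alone lay inside the BPN range, and the log2 difference was -1.29 ± 0.38 (adjusted p = 0.032). Ccl4, a ligand that draws monocytes and T cells, fell in BPL by 0.39 ± 0.11 on the log2 scale (adjusted p = 0.0177). Ccl2, the main monocyte attractant, had mean log2 levels of 7.07 in BPH and 7.18 in BPL, against 7.93 in BPN, and was not called (adjusted p = 0.235 and 0.312). Ccl5, which draws T cells, had 6.46 and 5.82, against 6.73, and was not called (adjusted p = 0.756 and 0.106).

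Ccl28, which recruits cells to mucosal and glandular surfaces through Ccr10 and Ccr3, had log2 levels of 2.04 to 2.62 (median 2.48) in BPH and 2.16 to 2.84 (median 2.42) in BPL aortas, against 4.52, 4.65, 3.94, 4.09 and 4.12 in BPN. No BPH or BPL array reached the BPN range. The log2 differences were -1.84 ± 0.12 (adjusted p = 2.71e-11) and -1.83 ± 0.12 (adjusted p = 3.04e-11), and with 16 added to every intensity they were -0.72 in both. The BPH and BPL means lay under the lower quartile of all aorta intensities, 2.96, where a level may be background, so no fold is given. The other Ccl28 probe set was not called (log2 differences of -0.31 and -0.35, adjusted p = 0.189 and 0.115). Tmem267, the next coding gene to Ccl28 on chromosome 13, had mean log2 levels of 2.90 in BPH and 2.86 in BPL aortas, under that quartile too, against 7.26 in BPN (adjusted p = 3.16e-19 and 2.18e-19).

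Cxcl12, which retains marrow cells and vessel progenitors through Cxcr4, has 3 probe sets. The probe set 100104413 had log2 levels of 8.31 to 9.63 (median 8.84) in BPH and 9.63 to 10.55 (median 10.003) in BPL aortas, against 8.97, 9.30, 8.79, 8.75 and 8.80 in BPN. All BPL arrays lay above all BPN arrays, and the log2 difference of BPL from BPN was 1.10 ± 0.17 (adjusted p = 3.87e-05), with -0.04 ± 0.17 in BPH (adjusted p = 0.94). The 2 others gave 0.27 ± 0.09 (adjusted p = 0.0474) and 0.19 ± 0.12 (adjusted p = 0.385) in BPL, so the size of the increase differed between probe sets. Cxcl16, a membrane-bound ligand of Cxcr6, fell by 1.14 ± 0.34 in BPH with probe set 100092324 (adjusted p = 0.0317) and by 0.53 ± 0.11 in BPL with probe set 100086782 (adjusted p = 0.00137), each on the log2 scale. Each of these 2 probe sets was below BPN in both strains but was called in 1 strain alone. Ccl19, which guides dendritic cells through Ccr7, fell in BPL by 0.42 ± 0.12 on the log2 scale (adjusted p = 0.0301). Ccl25, a thymic and gut ligand, rose in BPH by 0.37 ± 0.11 (adjusted p = 0.0372).

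Of the receptors, Cxcr4 had log2 levels of 7.94 to 8.80 (median 8.21) in BPH and 8.24 to 9.18 (median 8.69) in BPL aortas, against 9.58, 9.59, 8.98, 9.76 and 9.54 in BPN. The BPH arrays lay wholly under the BPN arrays, and the BPL arrays overlapped them through BPN array 13 alone. Cxcr4 fell by 1.23 ± 0.14 (adjusted p = 9.29e-07) in BPH and by 0.80 ± 0.14 (adjusted p = 0.00037) in BPL, and was lower in BPH than in BPL by -0.43 ± 0.12 (adjusted p = 0.0194), all log2 differences. Cxcr6, carried by effector T and natural killer T cells, had log2 levels of 2.76 to 4.38 (median 3.80) in BPH, against 5.82, 5.22, 5.40, 4.37 and 4.25 in BPN. BPH overlapped BPN only at BPN arrays 14 and 15. The log2 difference was -1.35 ± 0.28 (adjusted p = 0.00193) in BPH and -0.82 ± 0.28 in BPL (adjusted p = 0.0693, not called). Xcr1 had log2 levels of 3.78 to 4.85 (median 4.004) in BPH and 2.38 to 3.23 (median 2.80) in BPL, against 3.18, 3.21, 3.05, 2.58 and 2.76 in BPN. Each BPH array was above each array of both other strains, with log2 differences of 1.16 ± 0.15 from BPN (adjusted p = 4.41e-06) and 1.31 ± 0.13 from BPL (adjusted p = 2.56e-08). The BPL and BPN means of Xcr1, 2.81 and 2.96, lay under the lower quartile of aorta, so the size of these differences may be off; with 16 added to every intensity they were 0.49 and 0.54. Ccr1, a monocyte and neutrophil receptor for Ccl9 and Ccl6, fell in BPL by 1.65 ± 0.48 on the log2 scale (adjusted p = 0.0274).

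**Figure D2:**
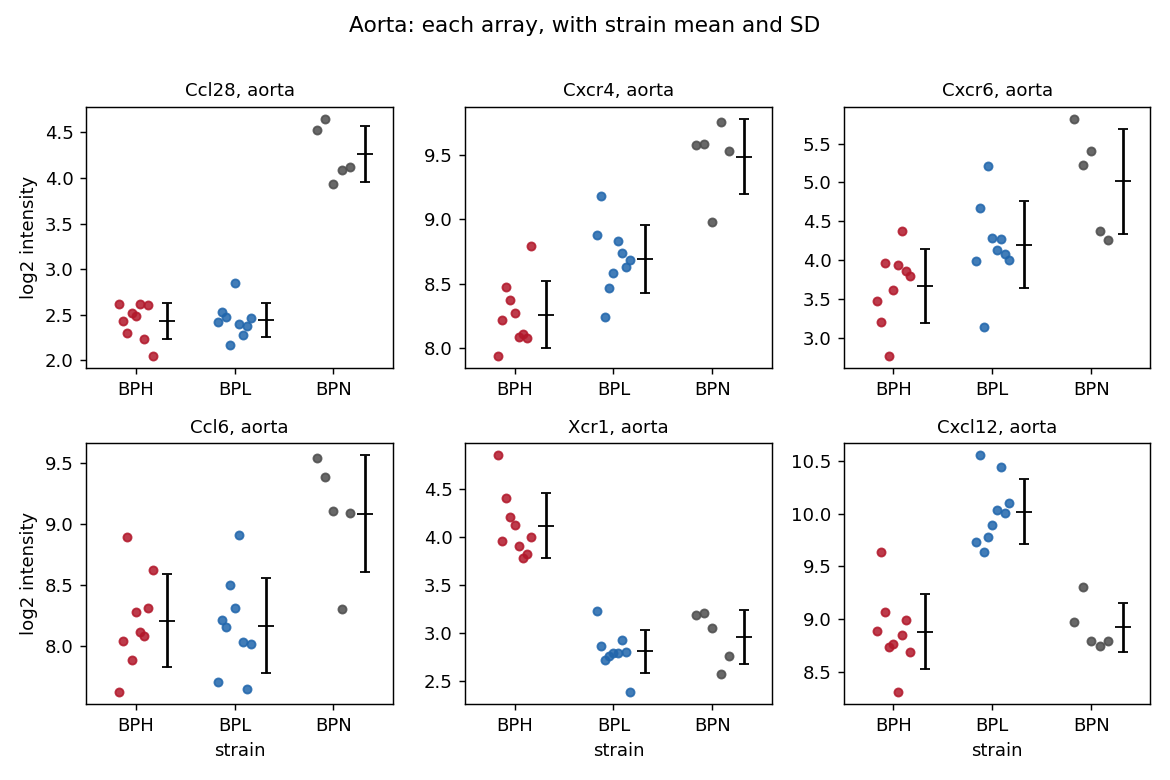
Log2 intensity of Ccl28, Cxcr4, Cxcr6, Ccl6, Xcr1 and Cxcl12 (probe set 100104413) on each aorta array of BPH, BPL and BPN (points), with the strain mean and SD beside them. Ccl28 and Cxcr4 of BPH lie wholly below BPN, Xcr1 of BPH lies wholly above BPN, and Cxcl12 of BPL lies wholly above BPN.

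Some leukocyte markers also differed between strains in aorta, not all in 1 direction, and their part in these values was not tested. Of 4 T cell markers measured 3 fell in BPH, with summed intensities of 132 to 265 in BPH and 214 to 355 in BPL, against 195 to 543 in BPN. Of 4 B cell markers 2 fell in BPH, with sums of 40.4 to 320 in BPH and 119 to 216 in BPL, against 139 to 409 in BPN. Of 4 monocyte markers 2 fell in each strain, with sums of 3486 to 4593 in BPH and 4246 to 4874 in BPL, against 5533 to 5928 in BPN. Of 9 macrophage markers none was called in BPH or BPL by limma. Neutrophil markers had sums of 722 to 9569 in BPH, 564 to 1122 in BPL and 519 to 2159 in BPN, and 1 of 6, S100a9, rose in BPH. Among 27 measured partners of the pathway outside the rule, 2 rose and 3 fell in BPH. They were Rgs1, which damps receptor signalling in lymphocytes (log2 difference 1.86 ± 0.17, adjusted p = 1.84e-08), the platelet chemokine Ppbp (1.31 ± 0.27, adjusted p = 0.00165), the scavenging receptor Ackr4 (-1.05 ± 0.24, adjusted p = 0.00486), Elmo1 (-0.50 ± 0.095, adjusted p = 0.000656) and the receptor kinase Grk5 (-0.37 ± 0.070, adjusted p = 0.000714). In BPL, Ackr4 (-0.78 ± 0.24, adjusted p = 0.0385) and Elmo1 (-0.60 ± 0.095, adjusted p = 6.45e-05) fell too. Arrb2 (0.47 ± 0.12, adjusted p = 0.0112) and Grk3 (0.69 ± 0.17, adjusted p = 0.00582) rose in BPL. Of all probe sets, 9.15% were called in BPH and 10.3% in BPL.

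Several aortic calls rested on single arrays. Without BPN array 12, 6 probe sets were called in BPH and 6 in BPL, and without BPN array 13, 6 in BPL. In BPH, Ccl7 was lost without any of BPH arrays 3, 7, 8 and 9 and BPN arrays 11, 12 and 15 (adjusted p up to 0.11), and Ccl25 without any of BPH arrays 3, 7, 8 and 10 and BPN arrays 12, 13 and 14 (up to 0.142). Cxcl16 probe set 100092324 was lost without BPH array 6 or 8 or BPN array 11, 12, 13 or 14 (up to 0.0817), and Ccl9 probe set 100080877 without BPN array 11, 12 or 13 in BPH (up to 0.0862) and in BPL (up to 0.0867). In BPL, Ccl19 depended on BPL arrays 22, 23 and 26 and BPN arrays 12, 13 and 15 (up to 0.131), Ccr1 on BPL array 25 and BPN arrays 11, 12 and 13 (up to 0.107) and Ccl4 on BPN arrays 12 and 13 (up to 0.0792). Cxcl12 probe set 100121212 was lost without any BPN array or any of BPL arrays 21, 22, 23, 25, 26 and 27 (up to 0.129).

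In heart, monocyte and T cell ligands were lower in both BPH and BPL than in BPN, while Cxcl14 was higher in BPL. Ccl2, Ccl5, Ccl7 and Ccl12 fell in BPH, and Ccl2, Ccl5, Ccl6, Ccl8, Ccl9 and Ccl12 fell in BPL. In BPH against BPN 2 probe sets rose and 5 fell, 13% of the members against 7.02% of all probe sets (3.51% higher, 3.51% lower). In BPL against BPN 4 rose and 8 fell, 22.2% of the members against 9.34% of all probe sets (4.14% higher, 5.2% lower). BPH was higher than BPL in 3 and lower in 3, 11.1% of the members against 8.57% of all probe sets (4.59% higher, 3.97% lower). The 5 that fell in BPH were all ligands, and the 2 that rose were 1 Cxcl12 probe set and its receptor Cxcr4. Of the 10 probe sets of inducible monocyte and T cell ligands, 4 fell in BPH and 7 in BPL and none rose, with median log2 differences of -0.40 and -0.66, beside 0.0066 and 0.010 over all probe sets. For each of those that fell, BPN array 2 was the highest BPN heart array.

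Ccl2 had log2 levels of 6.23, 6.08, 6.44, 5.90 and 6.31 in BPH hearts and 6.34, 6.65, 6.35, 6.62 and 6.72 in BPL hearts, against 7.15, 7.67, 7.03, 6.95 and 6.95 in BPN hearts. Every BPH and BPL array lay under every BPN array. The log2 difference was -0.96 ± 0.13 (adjusted p = 8.45e-05) in BPH and -0.62 ± 0.13 (adjusted p = 0.0049) in BPL. Ccl5 had 6.26, 6.11, 5.89, 5.87 and 6.22 in BPH and 6.08, 5.60, 5.69, 5.63 and 5.82 in BPL, against 6.42, 7.70, 7.26, 6.64 and 6.54 in BPN, on the log2 level scale. Again neither group overlapped BPN, with log2 differences of -0.84 ± 0.19 (adjusted p = 0.00946) and -1.15 ± 0.19 (adjusted p = 0.000563). For Ccl7 the log2 levels were 5.21, 5.29, 5.47, 5.22 and 5.53 in BPH, against 6.41, 7.35, 5.87, 5.88 and 5.84 in BPN, with a log2 difference of -0.92 ± 0.21 (adjusted p = 0.0112) and no overlap. Ccl12, a mouse monocyte ligand of Ccr2, fell by 0.68 ± 0.20 in BPH (adjusted p = 0.0469) and by 0.71 ± 0.20 in BPL (adjusted p = 0.0299) on the log2 scale.

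The macrophage ligands Ccl6, Ccl8 and Ccl9 fell in BPL hearts and were not called in BPH hearts. They were not called between BPH and BPL in heart either, and their BPH means lay between those of BPL and BPN. Ccl6 had log2 levels of 7.11, 6.86, 7.47, 6.79 and 7.10 in BPH and 6.67, 6.45, 6.58, 6.60 and 6.48 in BPL, against 7.33, 8.33, 7.22, 7.42 and 7.45 in BPN. All BPL arrays lay under all BPN arrays. The log2 difference of BPL was -0.99 ± 0.17 (adjusted p = 0.000623), and that of BPH was -0.48 ± 0.17 (adjusted p = 0.104). Ccl9 fell in BPL by 0.70 ± 0.15 (adjusted p = 0.00642) with probe set 100080877 and by 0.48 ± 0.14 (adjusted p = 0.0352) with probe set 100110291, and Ccl8 fell by 0.77 ± 0.18 (adjusted p = 0.0111), on the log2 scale. The BPH and BPL means of Ccl9 probe set 100110291, 3.16 and 2.99, lay under the lower quartile of heart, 3.26. A level there may be background, so the size of its decrease may be off. Cx3cr1, the fractalkine receptor of resident macrophages and patrolling monocytes, had log2 levels of 5.89, 6.45, 6.58, 6.59 and 6.47 in BPL, against 7.06, 7.28, 7.35, 6.97 and 6.82 in BPN. These values are of probe set 100089257. Neither group overlapped the other, and the log2 difference was -0.70 ± 0.12 (adjusted p = 0.000801). The other Cx3cr1 probe set, 100115868, was not called, and its BPL levels, 5.93 to 6.40, overlapped the BPN levels, 6.31 to 6.96. The ligand Cx3cl1 differed by -0.09 in each strain and was not called (adjusted p = 0.468 in BPH and 0.449 in BPL).

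Cxcl14, a constitutive ligand of epithelium, fat and muscle, had log2 levels of 6.77, 6.56, 6.83, 6.37 and 5.70 in BPH and 8.59, 8.84, 8.54, 8.64 and 8.57 in BPL hearts, against 6.87, 6.65, 6.44, 7.05 and 6.87 in BPN hearts, with probe set 100102089. The BPL arrays stood above all others. The log2 difference of BPL from BPN was 1.86 ± 0.17 (adjusted p = 4.96e-07), with 1.43 ± 0.17 (adjusted p = 1.15e-05) for the other probe set, and BPH was not called (-0.33 ± 0.17, adjusted p = 0.322). Adipocyte marker sums in heart were 2628 to 3568 (median 2857) in BPH and 2825 to 6378 (median 5171) in BPL, against 2841 to 4202 (median 3155) in BPN, with none of the 6 markers called, and their part in the Cxcl14 difference was not tested. Cxcl16 probe set 100092324 had log2 levels of 9.10, 9.02, 9.12, 8.97 and 9.19 in BPH and 9.69, 9.75, 9.78, 9.88 and 9.84 in BPL, against 9.37, 9.64, 9.46, 9.36 and 9.32 in BPN. The strains did not overlap, with BPH lowest and BPL highest. The log2 difference was -0.35 ± 0.067 (adjusted p = 0.00242) in BPH and 0.36 ± 0.067 (adjusted p = 0.00182) in BPL. Its other probe set, 100086782, gave -0.06 and 0.08 and was not called (adjusted p = 0.743 and 0.535).

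Cxcr4 and 1 of the 3 probe sets of Cxcl12 rose in BPH hearts. Cxcl12 probe set 100104413 had log2 levels of 9.81, 9.87, 9.79, 9.82 and 9.77 in BPH, against 9.47, 9.36, 9.36, 9.53 and 9.44 in BPN, a log2 difference of 0.38 ± 0.063 (adjusted p = 0.000624) with no overlap. The other Cxcl12 probe sets were not called in BPH, at 0.19 ± 0.065 for 100093335 (adjusted p = 0.105) and -0.0079 ± 0.080 for 100121212 (adjusted p = 0.98). Cxcr4 had log2 levels of 7.34, 7.31, 7.36, 7.41 and 7.75 in BPH and 6.18, 6.79, 6.81, 6.86 and 6.88 in BPL, against 6.99, 6.81, 7.12, 6.88 and 6.996 in BPN. Each BPH array was above each BPN array, with a log2 difference of 0.47 ± 0.12 (adjusted p = 0.0198). In BPL a different Cxcl12 probe set, 100093335, rose by 0.33 ± 0.065 on the log2 scale (adjusted p = 0.0025).

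**Figure D3:**
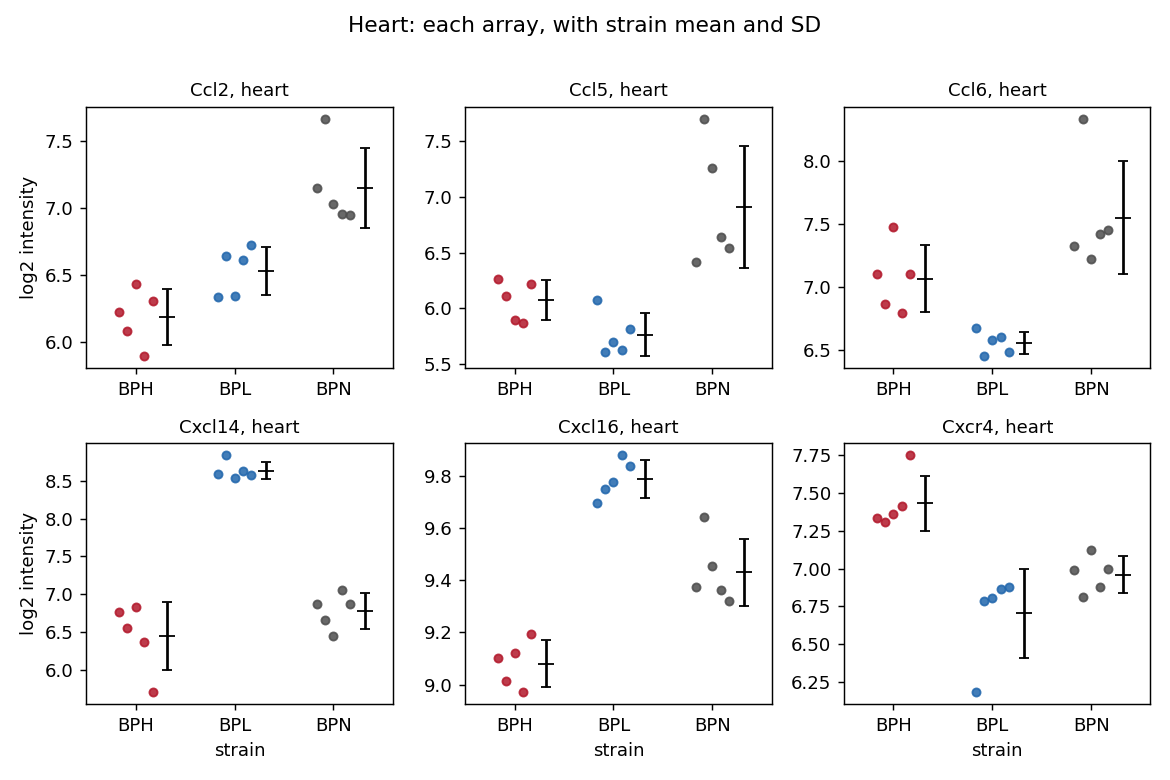
Log2 intensity of Ccl2, Ccl5, Ccl6, Cxcl14 (probe set 100102089), Cxcl16 (probe set 100092324) and Cxcr4 on each heart array of BPH, BPL and BPN (points), with the strain mean and SD beside them. Ccl2 and Ccl5 of BPH and BPL lie wholly below BPN, Cxcl14 of BPL lies wholly above the other strains, and BPN array 2 is the highest point for Ccl2, Ccl5 and Ccl6.

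Macrophage markers were lower in hearts of both strains, and their part in these results was not tested. Of 9 measured, 4 fell in BPH and 6 in BPL, with summed intensities of 2198 to 2478 in BPH and 2174 to 2292 in BPL, against 2728 to 4021 in BPN. Mast cell markers fell in BPL in 4 of 5, with sums of 279 to 329 in BPH and 218 to 239 in BPL, against 298 to 329 in BPN. Neutrophil markers rose in BPH in 3 of 6, with sums of 378 to 655 in BPH and 220 to 280 in BPL, against 236 to 327 in BPN. Red blood cell markers rose in BPH in 1 of 2, Alas2, with sums of 706 to 1313 in BPH and 456 to 813 in BPL, against 519 to 665 in BPN. Platelet markers rose in BPH in 1 of 5, the chemokine Ppbp itself, with sums of 252 to 329 in BPH and 142 to 182 in BPL, against 172 to 215 in BPN. BPH array 5 stood apart from the other BPH hearts: Ccl25 was at a log2 level of 6.83 on it, with 3.26 to 3.68 on the others, and its receptor Ccr9, which guides T cells to gut and thymus, was at 6.74 with 2.38 to 2.72 on the others. T cell marker sums in BPH hearts had a median of 138 and reached 779 on that array. Neither Ccl25 nor Ccr9 was called in BPH (adjusted p = 0.517 and 0.509). Without BPH array 5 and BPN array 2 together, a setting chosen after seeing the data, Cxcr4 and Ccl12 were no longer called in BPH (adjusted p = 0.131 and 0.178). Ccl12 depended in BPH on BPH arrays 1, 2, 4 and 5 and BPN arrays 1, 2 and 3 (up to 0.127) and in BPL on BPL arrays 1, 3 and 5 and the same BPN arrays (up to 0.085). Cxcr4 depended on BPH array 5 and BPN arrays 2 and 4 (up to 0.0576), and Ccl9 probe set 100110291 in BPL on BPL arrays 1 to 4 and BPN arrays 2, 3 and 5 (up to 0.092). When all 12 groups of tissue and strain shared 1 variance in a joint limma fit, no member was called in BPH hearts, with 10 under an unadjusted p of 0.05, and 6 were called in BPL hearts.

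In heart, 2 of 27 pathway partners rose and 4 fell in BPH, and 1 rose and 6 fell in BPL. Of all probe sets, 7.02% were called in BPH and 9.34% in BPL. Ppbp rose by 1.52 ± 0.18 in BPH (adjusted p = 1.55e-05) and fell by 0.59 ± 0.18 in BPL (adjusted p = 0.0449) on the log2 scale. Ackr3, which scavenges Cxcl12, fell by 0.28 ± 0.074 in BPH (adjusted p = 0.0285) and by 0.29 ± 0.074 in BPL (adjusted p = 0.0196). Ackr4, which clears Ccl19 and Ccl25, fell by 0.56 ± 0.10 (adjusted p = 0.00137) and 0.83 ± 0.10 (adjusted p = 1.99e-05).

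In kidney, every called member of BPH was lower than in BPN, and BPL combined higher Ccl2 and Cxcl14 with lower Ccl5, Cxcl16 and Cxcr6. In BPH against BPN 0 probe sets rose and 12 fell, 22.2% of the members against 7.05% of all probe sets (3.66% higher, 3.39% lower). The 12 cover 11 genes, 8 of them ligands and 3 receptors. In BPL against BPN 3 rose and 4 fell, 13% of the members against 6.24% of all probe sets (3.22% higher, 3.02% lower). BPH was higher than BPL in 2 and lower in 5, 13% of the members against 6.33% of all probe sets (3.14% higher, 3.19% lower).

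Ccl28 had log2 levels of 6.70, 6.63, 6.34, 6.03 and 5.44 in BPH and 7.76, 8.20, 7.27 and 7.83 in BPL kidneys, against 7.13, 7.43, 6.95, 6.95 and 8.33 in BPN kidneys. The BPH arrays lay under all others, and BPL overlapped BPN. The log2 difference of BPH was -1.13 ± 0.27 from BPN (adjusted p = 0.0158) and -1.53 ± 0.29 from BPL (adjusted p = 0.00257), and BPL was not called (0.41 ± 0.29, adjusted p = 0.51). Tmem267, its neighbour, had mean log2 levels of 3.48 in BPH and 3.77 in BPL, against 9.84 in BPN (adjusted p = 2.49e-17 and 1.31e-16), with the BPH mean under the lower quartile of kidney, 3.57.

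Ccl5 had log2 levels of 5.63, 5.71, 5.34, 5.57 and 5.51 in BPH and 5.26, 5.53, 4.70 and 5.40 in BPL, against 6.00, 6.40, 6.38, 6.40 and 5.82 in BPN. Neither strain overlapped BPN, with log2 differences of -0.65 ± 0.15 (adjusted p = 0.0105) and -0.98 ± 0.16 (adjusted p = 0.000634). Cxcl10, the interferon-induced ligand of Cxcr3, had log2 levels of 5.83, 4.70, 5.33, 5.72 and 5.41 in BPH, against 6.19, 6.60, 6.08, 5.98 and 5.60 in BPN, with a log2 difference of -0.69 ± 0.19 (adjusted p = 0.0331). BPN array 5 lay inside the BPH range. Ccl6 fell by 0.51 ± 0.13 (adjusted p = 0.0208), Ccl9 by 0.53 ± 0.13 (adjusted p = 0.0168) and Cxcl13, which guides B cells through Cxcr5, by 0.52 ± 0.13 (adjusted p = 0.021), all in BPH on the log2 scale.

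Both probe sets of Cxcl16 fell in both strains. Probe set 100086782 had log2 levels of 8.75, 8.72, 8.81, 8.72 and 8.70 in BPH and 8.11, 8.28, 8.12 and 8.43 in BPL, against 8.91, 9.11, 8.97, 9.02 and 8.94 in BPN. The strains did not overlap and BPL was lowest, with log2 differences of -0.25 ± 0.068 (adjusted p = 0.0335) in BPH and -0.75 ± 0.072 (adjusted p = 2.6e-06) in BPL. Its receptor Cxcr6 had log2 levels of 3.50, 3.26, 3.24, 3.36 and 3.72 in BPH and 3.18, 3.41, 3.38 and 3.53 in BPL, against 4.02, 4.15, 4.002, 3.99 and 3.55 in BPN. BPN array 5 alone came down to the level of the others, and the log2 differences were -0.53 ± 0.11 (adjusted p = 0.00754) and -0.57 ± 0.12 (adjusted p = 0.00766). The BPH and BPL means of Cxcr6 lay under that quartile of kidney, where a level may be background. In BPH the monocyte receptors Ccr2 and Cx3cr1 fell by 0.35 ± 0.085 (adjusted p = 0.0181) and 0.34 ± 0.079 (adjusted p = 0.0123) on the log2 scale. The Cx3cr1 value is that of probe set 100089257, and the other, 100115868, was not called (-0.11 ± 0.11, adjusted p = 0.691).

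Ccl2 had log2 levels of 4.54, 4.25, 3.99, 4.61 and 4.52 in BPH and 5.96, 6.20, 5.24 and 5.26 in BPL kidneys, against 4.41, 4.79, 4.67, 4.38 and 4.49 in BPN kidneys. The BPL arrays lay above all others, with a log2 difference of 1.12 ± 0.18 (adjusted p = 0.000821), and BPH was not called (-0.16 ± 0.17, adjusted p = 0.716). Cxcl14 probe set 100102089 had log2 levels of 7.06, 7.58, 6.61 and 6.59 in BPL, against 5.58, 5.77, 5.40, 5.84 and 5.58 in BPN. No array overlapped, and the log2 difference was 1.32 ± 0.17 (adjusted p = 5.73e-05), with 0.32 ± 0.092 (adjusted p = 0.0486) for the other probe set. Adipocyte marker sums in kidney were 549 to 2656 (median 1913) in BPL, against 1235 to 1531 (median 1298) in BPN, with none of the 6 markers called, and their part here was not tested.

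**Figure D4:**
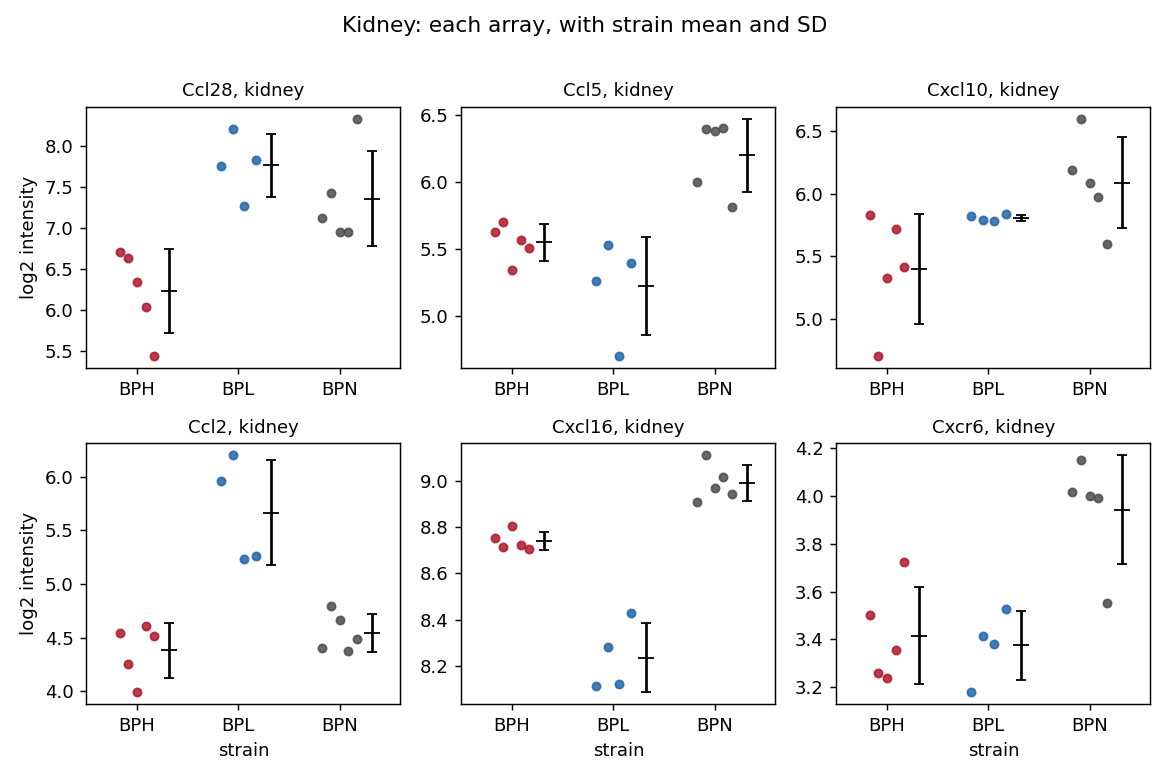
Log2 intensity of Ccl28, Ccl5, Cxcl10, Ccl2, Cxcl16 (probe set 100086782) and Cxcr6 on each kidney array of BPH, BPL and BPN (points), with the strain mean and SD beside them. Ccl28 of BPH lies below both other strains, Ccl2 of BPL lies above both, and Cxcl16 steps down in BPH and further in BPL relative to BPN.

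Macrophage markers fell in BPH kidneys in 3 of 9, with summed intensities of 606 to 747 in BPH and 793 to 1061 in BPL, against 766 to 1000 in BPN, and T cell markers in 2 of 4, with sums of 89.3 to 114 in BPH and 99.5 to 134 in BPL, against 103 to 133 in BPN. Their part in the BPH result was not tested. Of 27 partners 3 rose and 1 fell in BPH, beside 7.05% of all probe sets called. Among them were Ppbp (log2 difference 0.56 ± 0.10, adjusted p = 0.00225), Arrb1, a receptor-internalising arrestin (0.27 ± 0.058, adjusted p = 0.00696), and Ackr3 (-0.37 ± 0.11, adjusted p = 0.0453). Ackr3 fell in BPL too (-0.48 ± 0.11, adjusted p = 0.0158). Gnai2 rose in BPH (0.22 ± 0.059, adjusted p = 0.0326) and in BPL (0.26 ± 0.063, adjusted p = 0.0182). Many kidney calls of BPH were narrow. Without BPN array 2 or BPN array 3, 7 were called, and the joint limma fit kept 2, Ccl28 and Cxcl10. Cxcl10 was lost without any of BPH arrays 2, 3 and 5 and BPN arrays 1, 2 and 3 (adjusted p up to 0.0877), Cxcl13 without BPH array 2 or 4 or BPN array 2, 3 or 5 (up to 0.0627), Ccl6 without BPH array 4 or BPN array 2, 3 or 5 (up to 0.0562) and Ccr2 without BPN array 4 (0.0507). Cxcl12 probe set 100093335, which fell by 0.39 on the log2 scale, was lost without any of BPH arrays 1, 2, 4 and 5 and BPN arrays 1 to 4 (up to 0.115). The other Cxcl12 probe sets were not called in BPH. Mean log2 levels in BPH and BPN were 9.63 and 9.73 for 100121212 and 8.67 and 8.76 for 100104413. Cxcl16 probe set 100086782 was lost without any of BPH arrays 1, 2, 4 and 5 and BPN arrays 2, 3 and 4 (up to 0.0883). In BPL, Cxcl14 probe set 100090654 was lost without any BPL array or BPN array 1, 3 or 4 (up to 0.122).

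In liver, Ccl9 was highest and Ccr3 lowest in BPH, with BPL between BPH and BPN. Cxcl14 and Ccl5 were lower in both BPH and BPL, and 1 Cx3cr1 probe set was higher in BPL. In BPH against BPN 2 probe sets rose and 5 fell, 13% of the members against 7.14% of all probe sets (3.29% higher, 3.85% lower). In BPL against BPN 3 rose and 4 fell, 13% of the members against 7.47% of all probe sets (3.77% higher, 3.7% lower). BPH was higher than BPL in 1 and lower in 3, 7.41% of the members against 5.77% of all probe sets (2.68% higher, 3.09% lower).

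Ccl9 probe set 100080877 had log2 levels of 10.54, 10.53, 10.43, 10.69 and 10.64 in BPH and 9.99, 9.99, 10.02, 9.95 and 9.96 in BPL livers, against 9.29, 9.21, 9.64, 9.49 and 9.72 in BPN livers. The 3 strains did not overlap. Log2 differences were 1.10 ± 0.088 for BPH (adjusted p = 6.99e-08) and 0.51 ± 0.088 for BPL (adjusted p = 0.000767) from BPN, and 0.59 ± 0.088 for BPH from BPL (adjusted p = 0.000194). The other probe set rose in BPH by 0.53 ± 0.15 (adjusted p = 0.0329) and was not called in BPL (0.23 ± 0.15, adjusted p = 0.459). Ccr3, the eotaxin receptor of eosinophils, had log2 levels of 4.06, 4.38, 4.31, 4.15 and 4.16 in BPH and 4.62, 4.75, 4.66, 5.26 and 4.78 in BPL, against 5.32, 5.84, 5.63, 5.55 and 5.46 in BPN. These groups did not overlap either, with log2 differences of -1.35 ± 0.11 (adjusted p = 1.5e-07) and -0.75 ± 0.11 (adjusted p = 0.000222) from BPN and -0.60 ± 0.11 of BPH from BPL (adjusted p = 0.00209).

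Cxcl14 probe set 100102089 had log2 levels of 3.44, 3.40, 3.12, 3.44 and 3.39 in BPH and 3.23, 3.21, 3.45, 3.16 and 3.22 in BPL livers, against 5.10, 5.08, 4.28, 4.51 and 4.03 in BPN livers. Every BPH and BPL array lay under every BPN array, with log2 differences of -1.24 ± 0.16 (adjusted p = 3.2e-05) and -1.35 ± 0.16 (adjusted p = 1.11e-05). The other probe set gave -0.88 ± 0.13 (adjusted p = 0.000207) and -1.15 ± 0.13 (adjusted p = 8.27e-06). With 16 added to every intensity these 4 differences lay between -0.51 and -0.67, and all were still called. Ccl5 had log2 levels of 4.55, 4.61, 4.23, 4.52 and 4.79 in BPH and 4.33, 4.43, 4.37, 4.71 and 4.23 in BPL, against 4.88, 5.54, 5.32, 5.01 and 4.76 in BPN. BPL did not overlap BPN and BPH did by 1 array, with log2 differences of -0.57 ± 0.13 (adjusted p = 0.0123) and -0.69 ± 0.13 (adjusted p = 0.00234). Ccl28 fell in BPH by 0.35 ± 0.068 on the log2 scale (adjusted p = 0.00222).

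Cx3cr1 probe set 100089257 had log2 levels of 4.002, 4.04, 4.32, 4.12 and 3.89 in BPH and 5.02, 4.94, 4.91, 5.04 and 4.85 in BPL livers, against 4.54, 4.43, 4.25, 4.38 and 3.99 in BPN livers. All BPL arrays were above the others, with a log2 difference of 0.64 ± 0.096 (adjusted p = 0.000178), and its other probe set gave 0.25 ± 0.12 (adjusted p = 0.271). Cxcl12 probe set 100104413 rose in BPL by 0.31 ± 0.079 (adjusted p = 0.0181), a call lost without BPL array 3 or BPN array 4 (adjusted p up to 0.0561). The other Cxcl12 probe sets were not called. Mean log2 levels in BPL and BPN were 10.02 and 10.06 for 100121212 and 8.10 and 7.93 for 100093335. The call of Ccl9 probe set 100110291 in BPH was lost without any of BPH arrays 4 and 5 and BPN arrays 1, 2 and 4 (up to 0.0979). The joint limma fit ended the calls of Ccl28, Ccl5 and Ccl9 probe set 100110291 in BPH (adjusted p = 0.317, 0.367 and 0.305) and those of Ccl5, Ccl9 and Cxcl12 in BPL (adjusted p = 0.185, 0.0891 and 0.199).

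Macrophage markers fell in liver in 5 of 9 in each strain, with summed intensities of 1012 to 1334 in BPH and 1273 to 1347 in BPL, against 1496 to 1739 in BPN. Their part in the liver results was not tested. Among 27 partners, the receptor kinase Grk5 fell by 1.21 ± 0.11 on the log2 scale in BPH (adjusted p = 6.9e-07) and had a log2 difference of -1.29 ± 0.11 in BPL (adjusted p = 2.62e-07). The Duffy receptor Ackr1, which binds and carries inflammatory chemokines on venules and red cells, fell in BPL by 1.43 ± 0.13 (adjusted p = 3.12e-07), and Ackr2, which degrades inflammatory CC ligands, rose in BPL by 0.86 ± 0.16 (adjusted p = 0.00201).

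Between BPH and BPL, the largest called difference of the family in these 4 fits was that of Cxcl14 in heart, where probe set 100102089 differed by -2.19 ± 0.17 (adjusted p = 5.03e-08), as a log2 difference of BPH from BPL. In heart it was 0.73 ± 0.12 (adjusted p = 0.000453) for Cxcr4 and -0.71 ± 0.067 (adjusted p = 8.76e-07) for Cxcl16 probe set 100092324. In aorta the log2 difference was -1.14 ± 0.14 (adjusted p = 1.5e-06) for Cxcl12 probe set 100104413, 0.38 ± 0.091 (adjusted p = 0.00596) for Ccl4 and 0.62 ± 0.19 (adjusted p = 0.0278) for the eotaxin Ccl11, which draws eosinophils through Ccr3. The Ccl11 call was lost without any of BPH arrays 2, 5 and 11 and BPL arrays 21, 28 and 29 (adjusted p up to 0.0625). In kidney the log2 difference was -1.33 ± 0.17 (adjusted p = 5.36e-05) for Cxcl14 probe set 100102089, -1.28 ± 0.18 (adjusted p = 0.000209) for Ccl2 and 0.50 ± 0.072 (adjusted p = 0.000211) for Cxcl16 probe set 100086782. In liver it was -0.88 ± 0.096 (adjusted p = 4.17e-06) for Cx3cr1 probe set 100089257 and -0.46 ± 0.093 (adjusted p = 0.00334) for Cxcl16 probe set 100092324. The other Cx3cr1 probe set was not called there. Nor was the other Cxcl16 probe set, whose mean was higher in BPH than in BPL livers (7.31 against 7.18). The Cxcl16 calls of heart and liver were lost in the joint fit of all 12 groups (adjusted p = 0.102 and 0.496). Ccr8, a receptor of Th2 and regulatory T cells, differed in kidney by 0.35 ± 0.096 on the log2 scale (adjusted p = 0.0374). That call did not hold when any 1 of BPH arrays 1, 2 and 3 and BPL arrays 1, 2 and 5 was left out (adjusted p up to 0.115), nor in the joint fit (adjusted p = 0.231). Kidney Cx3cl1 differed by -0.28 ± 0.077 on the log2 scale (adjusted p = 0.0401). It was not called when any 1 of BPH arrays 1, 2, 4 and 5 and BPL arrays 1 and 2 was left out (adjusted p up to 0.124), nor in the joint fit (adjusted p = 0.0738).

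Whether a strain difference itself differed between tissues was tested as an interaction in the joint fit of all 12 groups. That fit treats all 67 arrays as independent; with 5 mice per strain, arrays of different tissues may share animals, which the labels do not state, so these p-values may be off. For BPH against BPN, 11 member probe sets of 9 genes passed, beside 13.7% of all probe sets. For BPL against BPN, 13 of 11 genes passed, beside 15.3% of all probe sets. Of 13 cases where a probe set was called in opposite directions in a pair of tissues, 12 had an interaction with an adjusted p under 0.05. These cases were picked by opposite calls on the same arrays, so that count was largely fixed in advance and is no separate support.

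Cxcl14 had the largest of these. In BPL its probe set 100102089 differed from BPN by 1.86 in heart and by 1.32 in kidney and by -1.35 in liver, on the log2 scale. The difference between heart and liver was 3.21 ± 0.33 (adjusted p = 5.37e-11), and that between kidney and liver was 2.67 ± 0.34 (adjusted p = 3.33e-08). In BPL aorta the log2 levels of Cxcl14 overlapped BPN and it was not called (0.19, adjusted p = 0.775). Its promoter is shown as that of the member with the largest difference between tissues, from RefSeq (GRCm38.p6), at chr13:56296502-56296801 on the minus strand, with capitals as above.
Cxcl14: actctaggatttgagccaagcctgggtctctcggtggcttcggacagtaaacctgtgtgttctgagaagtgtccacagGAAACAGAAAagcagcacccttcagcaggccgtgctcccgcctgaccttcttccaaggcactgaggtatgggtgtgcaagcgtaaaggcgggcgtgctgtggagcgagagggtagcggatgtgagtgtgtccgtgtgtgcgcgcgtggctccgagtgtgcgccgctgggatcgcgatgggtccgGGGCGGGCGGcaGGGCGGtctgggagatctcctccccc
The window holds 3 GGGCGG matches just after the start site, 2 of them overlapping, and 1 match to the interferon-stimulated element, 172 bases before it.

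Ccl9 probe set 100080877 fell in BPH aorta and kidney and rose in BPH liver. On the log2 scale the BPH difference was lower in aorta than in liver by -1.82 ± 0.24 (adjusted p = 3.01e-08) and lower in kidney than in liver by -1.63 ± 0.26 (adjusted p = 5.89e-06). In BPL the aorta and liver differences differed by -1.22 ± 0.24 (adjusted p = 0.000154) and those of heart and liver by -1.20 ± 0.26 (adjusted p = 0.00107). Cxcr4 fell in BPH aorta and rose in BPH heart, an interaction of -1.71 ± 0.21 (adjusted p = 8.18e-09). Ccl2 fell in BPL heart and rose in BPL kidney, with -1.73 ± 0.46 (adjusted p = 0.0195). Cx3cr1 probe set 100089257 fell in BPL heart and rose in BPL liver, with -1.34 ± 0.29 (adjusted p = 0.00106). The other Cx3cr1 probe set was called in neither, and its BPL interaction over all tissues did not pass (F test, adjusted p = 0.124). Cxcl16 probe set 100092324 rose in BPL heart and fell in BPL kidney, and that interaction did not pass (0.82 ± 0.36, adjusted p = 0.343). Its arrays had SDs of 0.67 in BPH and 0.79 in BPL aorta. In BPL and BPN the SDs were 0.072 and 0.13 in heart and 0.065 and 0.13 in kidney. The shared variance takes in the aorta spread, so this test cannot decide whether the heart and kidney differences differ.

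**Figure D5:**
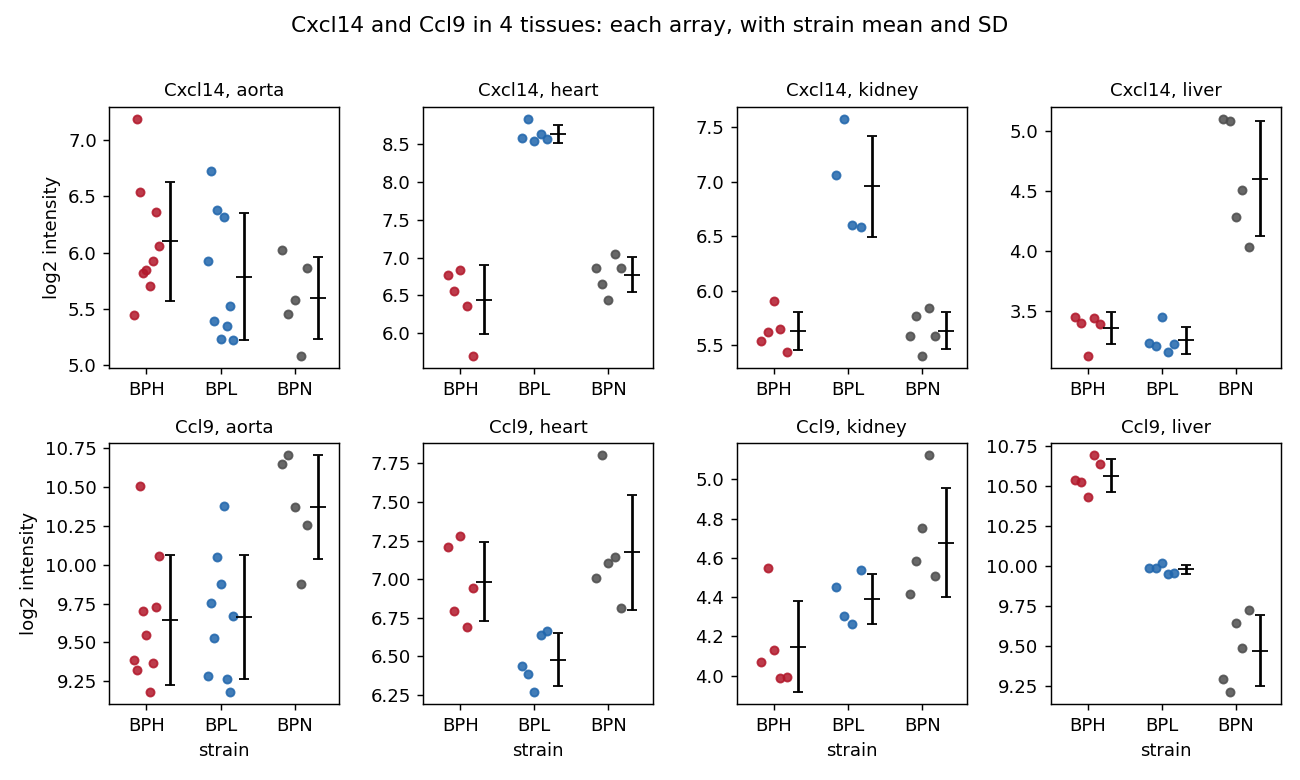
Log2 intensity of Cxcl14 (probe set 100102089, upper panels) and Ccl9 (probe set 100080877, lower panels) on each array of BPH, BPL and BPN in the 4 tissues (points), with strain mean and SD; each panel has its own axis. Cxcl14 of BPL lies above BPN in heart and kidney and below it in liver, and Ccl9 of BPH lies below most of BPN in aorta and above it in liver.

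Ccl28 and Ccr3 also differed between tissues. The Ccl28 difference of BPL from BPN was negative in aorta and positive in kidney, with an adjusted p of 1.7e-11 for the interaction, whose size is not given because the BPL level in aorta may be background. Xcr1 is not compared between tissues, since its means in all 3 strains lay under the lower quartile in heart, kidney and liver, where a strain difference may not be measurable. Ccr3 was called in BPH against BPN in liver alone, where it fell. Its BPH difference lay above that of liver in aorta (by 1.30 ± 0.15, adjusted p = 6.61e-10), heart (1.46 ± 0.16, adjusted p = 2.76e-10) and kidney (1.22 ± 0.16, adjusted p = 6.66e-08). Ccl5 was called lower in heart, kidney and liver of both strains and was not called in aorta, and no interaction of Ccl5 between tissues passed. Its BPH arrays had an SD of 0.92 in aorta, against 0.18 in heart, 0.14 in kidney and 0.20 in liver. The joint fit shares that spread, so this result cannot show that the tissues were alike.

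The neutrophil ligands Cxcl1, Cxcl2, Cxcl3 and Cxcl5 and their receptors Cxcr1 and Cxcr2 were called in no comparison. The means of Cxcl2, Cxcl5 and Cxcr2 lay under the lower quartile in every strain and tissue, where a strain difference may not be measurable. The same held for Cxcl3 in aorta, heart and kidney. Cxcl1 had log2 differences from BPN of -0.20, 0.05, -0.07 and -0.40 in BPH aorta, heart, kidney and liver and of -0.52, -0.19, 0.28 and -0.89 in BPL, with adjusted p of 0.107 or more. The lymphoid receptors Ccr7 and Cxcr5 and the T cell receptor Cxcr3 were not called either. Their log2 differences reached -0.67 for Ccr7 (BPL against BPN in aorta, adjusted p = 0.0881), -0.23 for Cxcr5 (BPH against BPL in aorta, adjusted p = 0.298) and -0.24 for Cxcr3 (BPH against BPL in aorta, adjusted p = 0.312).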

How the data were processed

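Total RNA of aorta, heart, kidney and liver was hybridised to 67 single-colour custom arrays. Aorta RNA was amplified by a different protocol (NuGEN) from the other tissues, per the labels' protocols. The deposited values are intensities, 1 for each probe set and array, and RMA is the method that the submitters' processing notes name. Values ran from 1.80 to 22648, so they were taken as linear intensities and turned to log2 here with a pseudocount of 0. Detection calls, batches and scan dates were not given. Symbols came from the platform annotation: 24478 probe sets had 1 symbol, 65 several and 13842 none. The array's genome build is not given in the sources used here, so coordinates are printed for RefSeq promoters alone. Promoters were found for 36 of the 47 genes. Cxcl9, Cxcl11, Ccl21a, Ccl24, Ccl26, Ccl27a and Cxcl15 had no named probe set and were not analysed here.

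Tissues were fitted separately in R 4.3.3 by limma 3.58.1 (a mean for each strain, lmFit and eBayes), with p-values adjusted over all probe sets. The procedure was tested on simulated data. The members, gene lists and comparisons were chosen with earlier results of these data known. Genes named were the 6 largest called members per tissue and comparison, a fixed set of ligands and receptors, members called in opposite directions in a pair of tissues, members called in all 4 tissues in 1 direction and genes whose probe sets disagree; others were named after their values were seen. A gene of the partner and marker lists was its probe set of highest mean. Same-numbered arrays of different strains did not deviate together (correlations from -0.29 to 0.28), so numbers were not used as pairs. Alternatives were a second normalisation, median centring, a pseudocount of 16, a trended robust variance, array weights, a joint fit, a dim filter, 1 probe set per gene, a replicate block and leaving out each array. The number of arrays limits the precision.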

Additional observations from a re-analysis of the deposited data

Results flagged for a closer look

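Among 300 groups of arrays examined, 23 had 1 array far from the rest of its strain; chance alone flags about 1 in 20 groups. In aorta, BPH array 11 stood high for Ccl2, at a log2 level of 8.90 with 6.04 to 7.44 on the other BPH arrays, and for Ccl7, at 7.74 with 5.23 to 6.19. BPL array 26 stood high for Ccl2 (9.09, others 6.18 to 7.52), BPL array 22 for Cxcl13 (7.07, others 3.55 to 5.18) and BPL array 21 for Cxcr5 (5.27, others 4.15 to 4.62). BPN array 13 was low for Cxcr4 (8.98, others 9.54 to 9.76).

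In heart, BPL array 1 differed for 4 genes: Ccl19 was high (4.001, others 3.36 to 3.50), and Cx3cr1 (5.89, others 6.45 to 6.59), Cxcl12 (9.29, others 9.55 to 9.60) and Cxcr4 (6.18, others 6.79 to 6.88) were low. BPN array 2 was high for Ccl2 (7.67, others 6.95 to 7.15) and Ccl6 (8.33, others 7.22 to 7.45). That array was also the highest BPN heart array, though not flagged, for Ccl5, Ccl7 (7.35, others 5.84 to 6.41), Ccl8, Ccl12 and both probe sets of Ccl9. BPH array 5 was high for Cxcr4 (7.75, others 7.31 to 7.41) and low for Ccl9 probe set 100110291 (2.96, the others all at 3.21).

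In kidney, Ccl9 was high on BPH array 2 (4.55, others 3.99 to 4.13), Cxcl12 probe set 100093335 was low on BPH array 1 (7.31, others 7.73 to 7.78) and Cxcr6 was low on BPN array 5 (3.55, others 3.99 to 4.15). In liver, Cxcl10 (4.80, others 5.14 to 5.25), Cxcl14 (3.12, others 3.39 to 3.44) and Cxcr5 (2.75, others 2.98 to 3.06) were low on BPH arrays 1, 3 and 5, 1 array each. Ccr3 was high on BPL array 4 (5.26, others 4.62 to 4.78), Cxcl14 on BPL array 3 (3.45, others 3.16 to 3.23) and Cxcr3 on BPN array 5 (5.27, others 5.07 to 5.12).

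A strain difference that was called in opposite directions in a pair of tissues, with an interaction past the threshold, was found 12 times. The interactions used the same arrays as the opposite calls, so they are no separate support for them. In BPH these were Cxcr4 between aorta and heart (log2 difference of differences -1.71), Ccl9 probe set 100080877 between aorta and liver (-1.82) and between kidney and liver (-1.63), and Ccl9 probe set 100110291 between aorta and liver (-1.88). In BPL they were Ccl9 probe set 100080877 between aorta and liver (-1.22) and between heart and liver (-1.20), Ccl2 between heart and kidney (-1.73) and Cx3cr1 probe set 100089257 between heart and liver (-1.34). Cxcl14 in BPL gave 3.21 and 2.58 between heart and liver and 2.67 and 1.47 between kidney and liver, for probe sets 100102089 and 100090654 in turn.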

How the results depend on the processing

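Of the 97 member calls over the 12 comparisons, 70 held when any single array was left out, 54 held under every other setting, 47 held under all, and 0 turned direction. Leaving out single arrays gave 6 to 11 called members in aorta for BPH against BPN, 6 to 13 for BPL against BPN and 6 to 8 for BPH against BPL. The same 3 comparisons had 5 to 8, 10 to 13 and 5 to 6 calls for heart, 7 to 11, 6 to 7 and 4 to 7 for kidney, and 6 to 8, 7 to 8 and 4 to 5 for liver. The tissue interactions kept 9 to 14 members in BPH and 12 to 17 in BPL. Kidney BPH against BPL dropped to 4 without BPH array 1 or BPL array 2. The joint fit of 12 groups, which shares 1 variance over tissues, called 20 in aorta for BPL against BPN (main 11) and 14 for BPH against BPL (main 7). It called 0, 6 and 3 in heart (main 7, 12 and 6, in the order BPH against BPN, BPL against BPN, BPH against BPL), 2, 4 and 4 in kidney (main 12, 7 and 7) and 4 in liver for BPH against BPN (main 7); 10 members were under an unadjusted p of 0.05 in the heart fit with 0. With a replicate block the 3 comparisons, in the same order, had 6, 12 and 5 calls for heart, 9, 7 and 5 for kidney and 7, 8 and 4 for liver; the block ended the calls against BPN of Ccl12 in BPH heart and of Cxcl10, Cxcl12 and Cxcl16 probe set 100086782 in BPH kidney, and those of BPH against BPL of Cx3cr1 in heart and of Ccr8 and Cx3cr1 in kidney. No paired analysis was possible for aorta because its strains share fewer than 2 replicate numbers. Rescaling moved the median of all probe sets by at most 0.028 on the log2 scale. Probe sets near the lower quartile of their tissue may lie at background.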

Other observations

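The next coding gene to Ccl28 on chromosome 13, Tmem267, was lower in BPH and BPL than in BPN in all 4 tissues. Its mean log2 levels were 3.84 in BPH and 3.99 in BPL, against 7.89 in BPN hearts, and 2.33 in BPH and 2.40 in BPL, against 7.44 in BPN livers. The BPH and BPL means in liver lay under the lower quartile of all liver intensities, 2.72, so no size is given there.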
